A study of Homo sapiens with 3 samples.

Results

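The hypoxia response and glycolysis genes described here are a list of 39 genes, chosen by name. It covers the hypoxia-inducible factor (HIF) pathway and the enzymes and transporters of glycolysis. The list was chosen with earlier results of these data known. A gene was read through every probe set that the platform annotation assigns to its symbol alone, and its value was the median over those probe sets. In this way 37 of the 39 genes were measured, out of 19775 genes in all, through 86 probe sets. CA9 (a carbonic anhydrase) and SLC16A3 (a lactate exporter) had no probe set with a single symbol in the annotation used and are not analysed here.

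The cells were SKBR3, a human breast cancer cell line whose ERBB2 gene is amplified. They were held for 4 h in 10% charcoal-stripped serum, which is poor in steroid hormones, and then treated for 3 h with 0.1% ethanol (the vehicle), with 1 µM estradiol, or with 1 µM ERα17p, a peptide taken from oestrogen receptor α. The labels mention no hypoxia in any group. There was 1 Affymetrix array per group and 3 in all, so the differences carry neither an error nor a p-value and compare single arrays rather than conditions.

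HIF is a pair of proteins, an oxygen-regulated α subunit (HIF1A or EPAS1) and the stable partner ARNT. In normal oxygen, prolyl hydroxylases of the EGLN family mark the α subunit for breakdown by the VHL ligase, so HIF is controlled mainly at the protein and not the RNA level. When HIF accumulates it binds the core motif ACGTG or GCGTG and raises genes for glucose uptake, glycolysis, lactate export, blood vessel growth and pH control. Several of these genes also answer to other signals, growth factors, inflammation and stress among them. Tumour cells often keep glycolysis high in normal oxygen too.

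Values are distances from a baseline that was subtracted from each probe set, on a scale taken as log2. Exact mirror values in pairs of columns point to a median to which these 3 arrays and others not used here contributed, so that a distance from it, and the spreads and counts made from such distances, depend partly on arrays not seen here. Values can be compared between arrays gene by gene, but they are not levels, and the order of the genes by expression cannot be read. For the same reason the identity of the cells could not be checked through the levels of their markers. Of 22 measured marker genes of luminal SKBR3 cells, leukocytes, endothelium and fibroblasts, none differed by 1.5-fold in any comparison. The differences of the 8 luminal markers ran from -0.14 to 0.28. The array labelled vehicle stood apart. Its standard deviation over all genes was 0.27, against 0.10 with estradiol and 0.11 with ERα17p, and 465 of its genes exceeded the baseline by 1.5-fold or more, against 1 and 13 on the others. For ACTB the 3′ probe set minus the 5′ probe set, which reflects RNA quality, gave 0.30 there, 0.02 with estradiol and -0.04 with ERα17p. For GAPDH it gave 0.05, 0.01 and -0.03. The part of RNA quality in the results was not tested. In a bulk sample, fewer cells with a transcript and less of it per cell cannot be told apart.

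In the text, "higher" and "lower" mean a difference of at least 1.5-fold. Only 4 of the 37 genes passed that size in any comparison, and each was lower than on the array labelled vehicle: PFKFB3, BHLHE40, ADM and EGLN3. No glycolytic enzyme passed it. The promoters of the 3 genes that were lower with both treatments are shown because these genes differed together and are known HIF targets. Each sequence is the 250 bases before an annotated start, 5′ to 3′, from RefSeq on GRCh38.p14, with every match to ACGTG or GCGTG on either strand in capitals, and overlapping matches counted as 1 site. PFKFB3 has 2 such starts in the table, at chr10:6144671-6144920 and chr10:6202682-6202931, BHLHE40 has 1 at chr3:4979187-4979436, and ADM has 1 at chr11:10304823-10305072, all on the plus strand.
PFKFB3 start 1: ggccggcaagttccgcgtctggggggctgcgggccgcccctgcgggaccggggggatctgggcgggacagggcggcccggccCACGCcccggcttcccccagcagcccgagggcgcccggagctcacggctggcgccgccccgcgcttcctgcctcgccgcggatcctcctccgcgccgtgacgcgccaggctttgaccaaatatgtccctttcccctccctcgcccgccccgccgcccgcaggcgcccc
PFKFB3 start 2: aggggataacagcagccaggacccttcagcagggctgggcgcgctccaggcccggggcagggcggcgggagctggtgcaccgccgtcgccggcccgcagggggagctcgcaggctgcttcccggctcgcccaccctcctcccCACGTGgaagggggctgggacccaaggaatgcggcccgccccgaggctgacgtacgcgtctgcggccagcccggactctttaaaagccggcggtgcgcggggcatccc
BHLHE40: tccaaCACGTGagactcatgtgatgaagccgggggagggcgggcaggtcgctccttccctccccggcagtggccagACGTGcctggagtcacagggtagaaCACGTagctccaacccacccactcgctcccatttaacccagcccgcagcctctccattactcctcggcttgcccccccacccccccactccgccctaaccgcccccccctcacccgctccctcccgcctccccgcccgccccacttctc
ADM: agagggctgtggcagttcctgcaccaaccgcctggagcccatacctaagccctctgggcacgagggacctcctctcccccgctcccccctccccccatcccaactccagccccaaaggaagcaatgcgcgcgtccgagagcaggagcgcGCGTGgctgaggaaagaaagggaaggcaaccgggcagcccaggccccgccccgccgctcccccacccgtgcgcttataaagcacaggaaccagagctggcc

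The BHLHE40 window held 3 sites, the ADM window 1 and each PFKFB3 window 1. The sites of the second PFKFB3 window and the first of BHLHE40 read CACGTG, a palindrome that is also an E-box, the motif bound by basic helix-loop-helix proteins such as BHLHE40 itself. EGLN3, the fourth gene that passed the size, had no match in its window, which says only that these letters are not there. The motif was common. It stood in 39 of the 63 windows of these genes (61.9%), counting every annotated start of the 35 genes found in the table, and in 43.2% of all 35116 promoter windows of that length. VEGFA, NDRG1, BNIP3L and SLC2A3 had no entry. Of the 28 measured genes with a site before any start, 3 were lower with estradiol and 3 with ERα17p. Of the 5 without, 0 and 1 were. Over all genes measured, 2.93% and 2.14% were lower, so a count out of 5 carries little. The enzymes carried it as well: 14 of 16 (87.5%) had a site in at least 1 window, beside 85.7% of all 35 genes of the list found in the table and 47.4% of all 27305 genes in it. A gene with more windows has more chances of a site. Counted by window, 19 of the 36 enzyme windows (52.8%) held it, beside 43.2% of all windows. PGK1 had it at 3 sites, LDHA at 4 over 2 windows and GAPDH at 1.

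**Figure D1:**
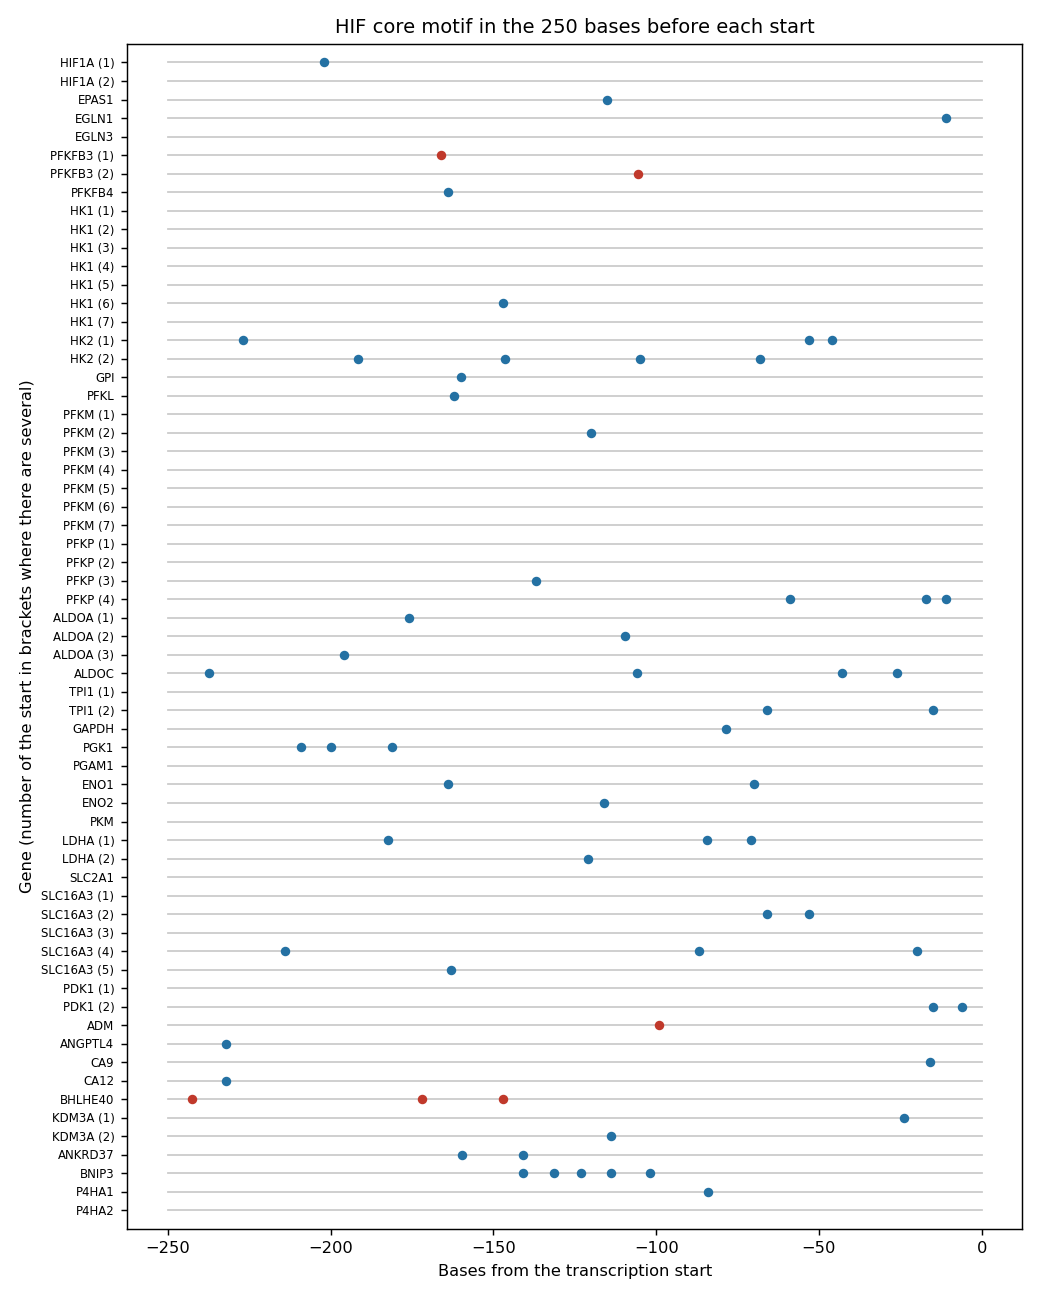
Positions of the HIF core motif (ACGTG or GCGTG, either strand) in the 250 bases before each annotated start of 35 genes, 1 line per start, with the distance from the start on the x axis. Points mark sites, in red for PFKFB3, BHLHE40 and ADM and in blue for the others; sites occur in 39 of 63 windows, glycolytic enzymes included, and EGLN3 has none.

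The regulators of glycolysis were considered next. PFKFB3 makes fructose 2,6-bisphosphate, the strongest allosteric activator of phosphofructokinase, and thereby sets the pace of glycolysis without being a step of it. It lay 1.33 log2 units above the baseline on the array labelled vehicle, at -0.47 with estradiol and at 0.30 with ERα17p. The 3 arrays were thus spread wide, with the array labelled vehicle far above both treated ones and the estradiol array lowest. The difference from the array labelled vehicle was -1.80 (3.48-fold) with estradiol and -1.04 (2.05-fold) with ERα17p, the widest of all measured genes of this list in both comparisons as deposited. With the arrays scaled to a common standard deviation it was -1.53 and -0.36, and with ERα17p BHLHE40 (-0.62) and EGLN3 (-0.65) were then wider. Counted from the lowest, PFKFB3 ranked 48 of 19775 genes with estradiol and 136 with ERα17p. It is read by 1 probe set, of a kind that can match more than 1 transcript, so no second probe set checks it.

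PFKFB4, which makes the same regulator and is also a HIF target, did not show this in its median. That lay at 0.01 on the array labelled vehicle, 0.00 with estradiol and 0.02 with ERα17p. Its 2 probe sets ran in opposite directions, at -0.32 and 0.29 for estradiol minus the array labelled vehicle, and their median hides that. The first lay at 0.25, -0.07 and 0.07 on the 3 arrays, in the order of PFKFB3, and the second at -0.22, 0.07 and -0.02. Neither reached 1.5-fold, and whether PFKFB4 shares the pattern of PFKFB3 cannot be read.

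BHLHE40, a transcriptional repressor of the basic helix-loop-helix family with ties to the circadian clock, had a pattern like that of ADM. It lay at 0.88 on the array labelled vehicle, at -0.04 with estradiol and at -0.07 with ERα17p. Both treated arrays sat close to the baseline and to each other, which does not show where the difference arose. It came to -0.92 (1.89-fold) with estradiol and -0.95 (1.93-fold) with ERα17p. The 2 probe sets agreed in sign but not in size. The first gave -1.61 and -1.59, and the second -0.22 and -0.30.

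Secreted factors came next. ADM encodes adrenomedullin, a vasodilator peptide. It lay at 0.83 on the array labelled vehicle, -0.09 with estradiol and 0.10 with ERα17p. The treated arrays lay on either side of the baseline and far below the array labelled vehicle. Its differences were -0.91 (1.88-fold) and -0.73 (1.66-fold), from 1 probe set.

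VEGFA, the main angiogenic growth factor and the best-known HIF target, differed in the same direction by less than the size rule. It lay at 0.44 on the array labelled vehicle, -0.04 with estradiol and 0.03 with ERα17p. That gave differences of -0.49 and -0.42. All 4 of its probe sets lay below 0 in both comparisons, from -0.89 to -0.29 with estradiol and from -0.66 to -0.19 with ERα17p. Only 1 of the 4 passed 1.5-fold. ANGPTL4, a secreted inhibitor of lipoprotein lipase, had -0.07 and 0.05, with no difference near that size.

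The oxygen sensors and HIF subunits form another group. EGLN3, an oxygen-sensing prolyl hydroxylase that HIF itself induces, lay at 0.50 on the array labelled vehicle, at -0.08 with estradiol and at -0.24 with ERα17p. By this median the ERα17p array was the lowest, unlike for PFKFB3, but the probe sets disagreed. With estradiol and ERα17p the first lay at -0.13 and -0.08, and the second at -0.03 and -0.39. The difference was -0.74 with ERα17p (1.68-fold). With estradiol it was -0.58, just short of 1.5-fold, and it passed, at -0.605, once each array was centred on its median, but came to -0.42 with arrays scaled to a common standard deviation. Both probe sets lay below 0 in both comparisons, from -0.67 to -0.49 with estradiol and from -0.86 to -0.63 with ERα17p.

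EGLN1, the main sensor that marks HIF α in normal oxygen, had small differences of -0.14 and -0.11. The transcripts of the α subunits hardly differed: HIF1A had -0.05 with estradiol and 0.04 with ERα17p from 1 probe set, and EPAS1 had 0.06 and 0.09. Protein was not measured.

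**Figure D2:**
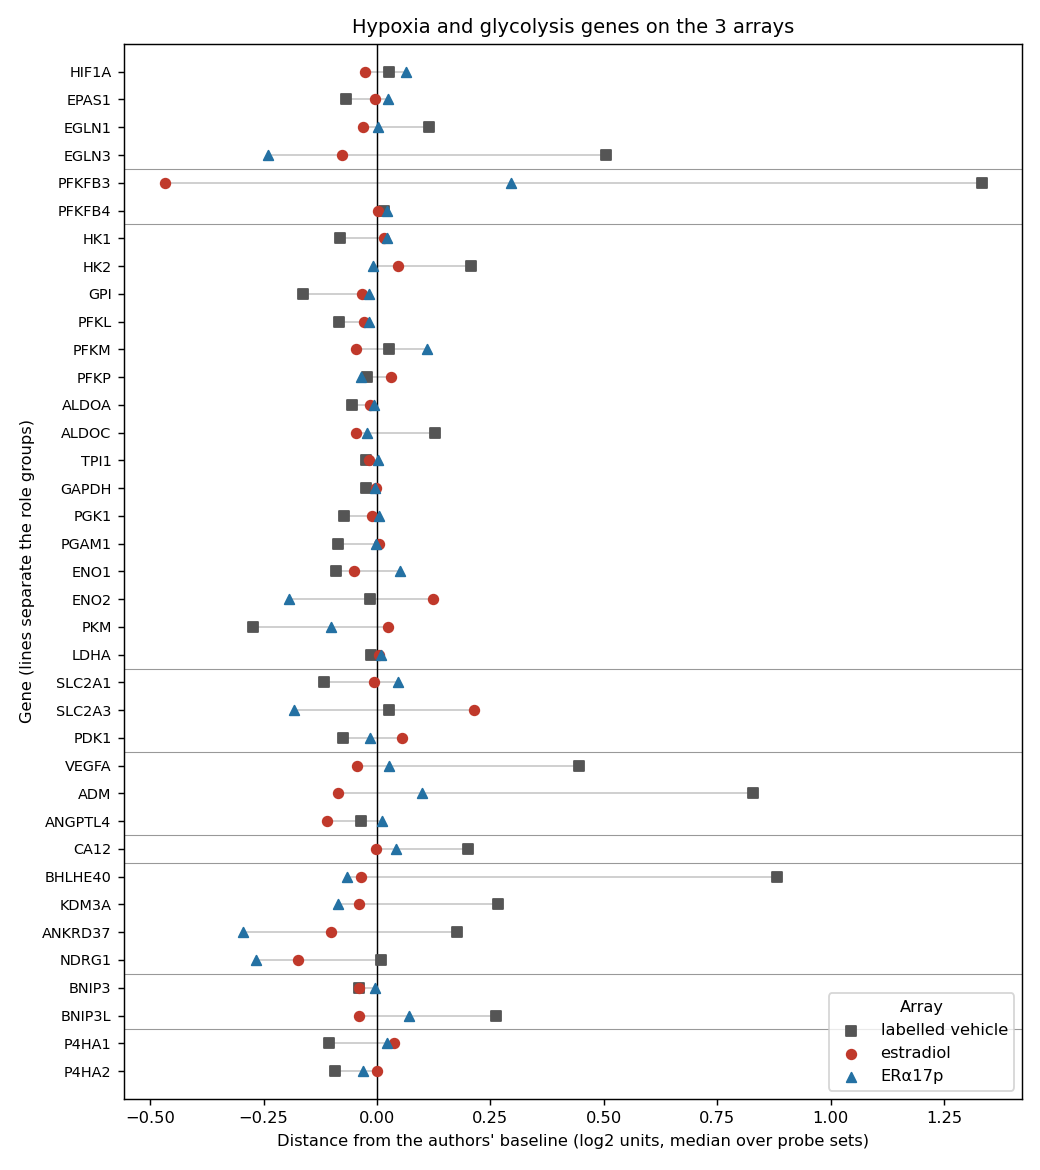
Value of each of the 37 measured genes on the 3 arrays, as distance from the authors' baseline in log2 units (x axis), with genes by role on the y axis, squares for the array labelled vehicle, circles for estradiol and triangles for ERα17p. PFKFB3, BHLHE40, ADM, EGLN3 and VEGFA lie far to the right on the array labelled vehicle, between 0.44 and 1.33, whereas the glycolytic enzymes stay within -0.27 and 0.21 on it.

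The glycolytic enzymes gave a contrast to PFKFB3. Of 16 enzymes, 0 were higher and 0 lower in any of the 3 comparisons. Few genes passed at all: 2.93% were lower and 0.809% higher with estradiol against the array labelled vehicle. With ERα17p the shares were 2.14% and 0.582%, and between the treatments 0.207% and 0.147%. A count of 0 of 16 is thus near the share over all genes. With estradiol against the array labelled vehicle the enzymes ran from -0.17 (ALDOC) to 0.30 (PKM), with a median of 0.05 and 13 of 16 above 0. With ERα17p they ran from -0.21 (HK2) to 0.17 (PKM), with a median of 0.06 and 12 of 16 above 0. Over all 19775 genes the medians were 0.03 and 0.03, with 11091 and 11462 genes above 0. The enzymes thus lay close to the bulk of genes. Their median absolute difference was 0.07 and 0.08, against 0.14 and 0.12 over all genes. The sign of so small a median is not firm: with ERα17p it turned to -0.08 over the 9 enzymes left when probe sets able to match several transcripts were dropped.

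Along the pathway, the hexokinases HK1 and HK2, which trap glucose in the cell, had 0.10 and -0.16 with estradiol and 0.10 and -0.21 with ERα17p. HK2, the inducible form, lay at 0.21 on the array labelled vehicle, 0.05 with estradiol and -0.01 with ERα17p, and its 3 probe sets all lay below 0 in both comparisons. GPI, which converts glucose 6-phosphate to fructose 6-phosphate, had 0.13 and 0.15. The phosphofructokinases PFKL, PFKM and PFKP, the step that the product of PFKFB3 activates, had 0.06, -0.07 and 0.05 with estradiol and 0.07, 0.08 and -0.01 with ERα17p.

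In the lower part, the aldolases ALDOA and ALDOC had 0.04 and -0.17 with estradiol and 0.05 and -0.15 with ERα17p. TPI1 and GAPDH, the triose steps, had 0.01 and 0.02 with estradiol and 0.03 and 0.02 with ERα17p. GAPDH lay at -0.02 on the array labelled vehicle and closer still to the baseline on the others. PGK1, the first step that yields ATP, had 0.06 and 0.08, and its 6 probe sets ran from -0.11 to 0.20 with estradiol. PGAM1 had 0.09 and 0.08. The enolases ENO1 and ENO2 had 0.04 and 0.14 with estradiol and 0.14 and -0.18 with ERα17p. PKM, pyruvate kinase, had the widest difference above 0: it lay at -0.27 on the array labelled vehicle, at 0.02 with estradiol and at -0.10 with ERα17p, which gave 0.30 (1.23-fold) and 0.17. Here the array labelled vehicle was the lowest and not the highest. LDHA, which turns pyruvate into lactate, had 0.02 in both comparisons.

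**Figure D3:**
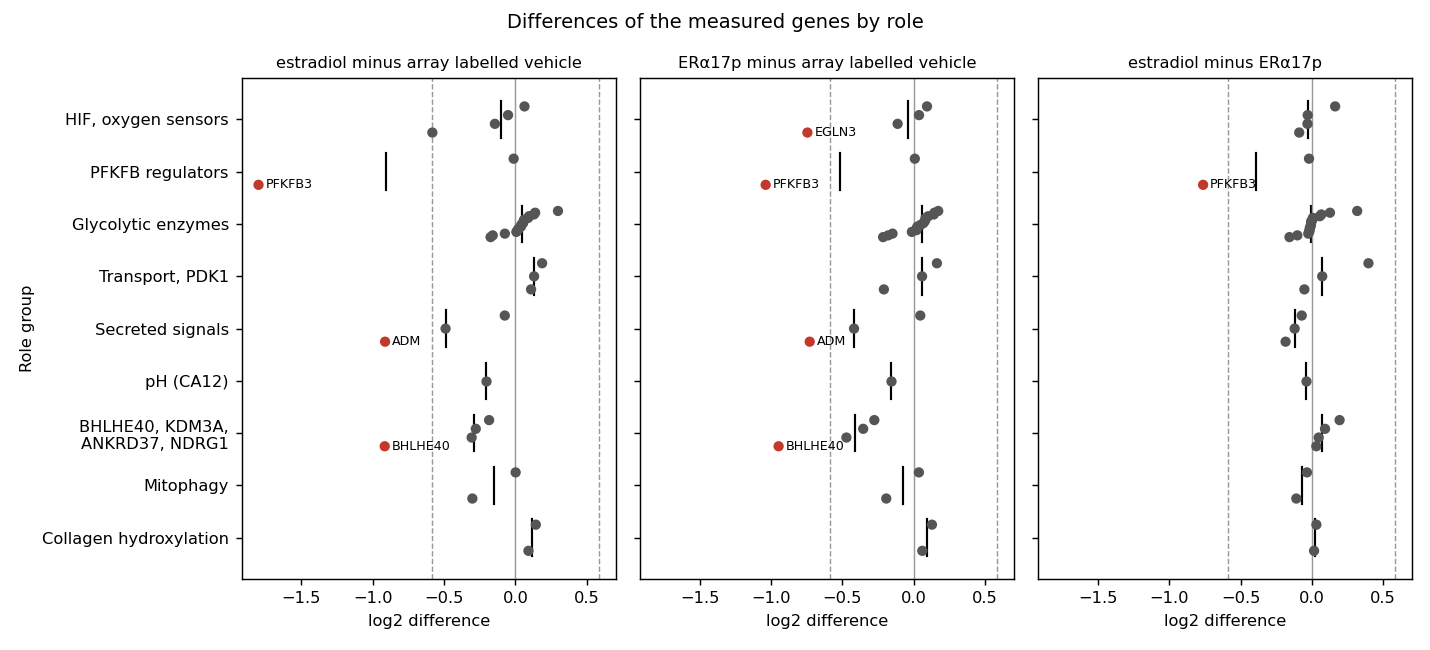
Log2 difference of each measured gene (points, x axis) by role group (y axis) in the 3 comparisons, 1 per panel, with the group median as a black bar and 1.5-fold as dashed lines. Genes past 1.5-fold are red and named; PFKFB3 is among them in every panel, at -1.80, -1.04 and -0.76, while all 16 glycolytic enzymes lie between the dashed lines.

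No gene of glucose entry and pyruvate use passed 1.5-fold. SLC2A1, the basal glucose transporter that HIF induces, had 0.11 with estradiol and 0.16 with ERα17p. PDK1, which keeps pyruvate out of the citrate cycle by inhibiting pyruvate dehydrogenase, had 0.13 and 0.06. SLC2A3, the high-affinity neuronal-type transporter, lay at 0.03 on the array labelled vehicle, 0.21 with estradiol and -0.18 with ERα17p. By this median the treated arrays lay on opposite sides of the array labelled vehicle, by 0.19 and -0.21. Of 2 more probe sets, which also match its paralogue SLC2A14, neither showed this. The first had 0.20 with estradiol and 0.13 with ERα17p, and the second -0.21 and -0.40.

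Of the remaining HIF targets, KDM3A, a histone demethylase, had -0.31 and -0.35. ANKRD37, an ankyrin-repeat protein, lay at 0.18 on the array labelled vehicle, -0.10 with estradiol and -0.29 with ERα17p, with differences of -0.28 and -0.47. NDRG1, a stress-responsive gene, had -0.18 and -0.28. Together with BHLHE40, all 4 genes of this group lay below 0 in both comparisons, with medians of -0.29 and -0.41. Of all genes measured, 43.8% and 41.9% lay below 0. Among the mitophagy receptors, BNIP3 stayed at 0.00 and 0.04 while BNIP3L had -0.30 and -0.19. CA12, a membrane carbonic anhydrase that is also a luminal breast marker, had -0.20 and -0.16 from 7 probe sets that ran from -0.57 to 0.37 with estradiol. The collagen prolyl hydroxylases P4HA1 and P4HA2 had 0.14 and 0.09 with estradiol and 0.13 and 0.06 with ERα17p.

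**Figure D4:**
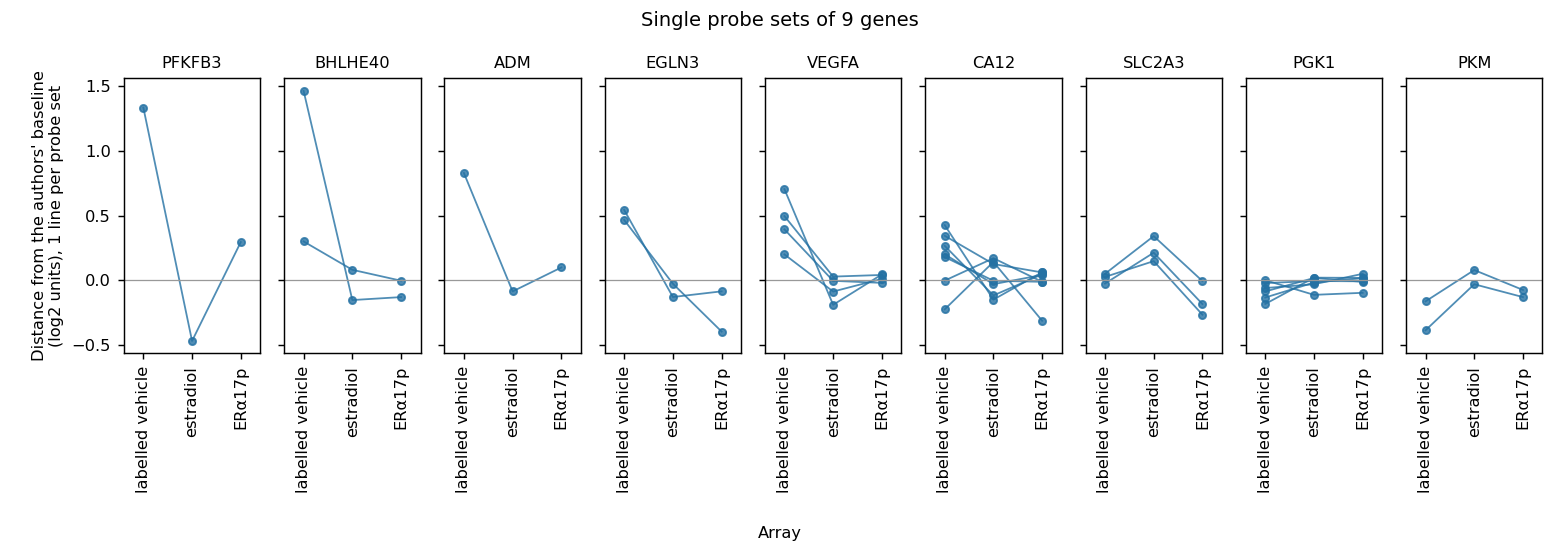
Distance of single probe sets from the authors' baseline (log2 units, y axis) on the 3 arrays (x axis) for 9 genes, with points of 1 probe set joined by a line only to mark that they belong together. The probe sets of VEGFA and EGLN3 all lie highest on the array labelled vehicle, those of BHLHE40 differ in size, those of SLC2A3 are all highest with estradiol, and those of CA12 disagree.

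Over the whole list, 3 of 37 genes (8.11%) were lower with estradiol than on the array labelled vehicle and 0 were higher, beside 2.93% lower and 0.809% higher among all genes. With ERα17p 4 of 37 (10.8%) were lower and 0 higher, beside 2.14% and 0.582%. These are counts of 3 and 4 genes on the same control array, and the treatments share it. Because the list was chosen with earlier results of these data known, an excess over all genes is description and no independent finding. The medians over the 37 genes were 0.01 and 0.02, against 0.03 and 0.03 over all genes, so the middle of the list lay where the middle of all genes did. The 21 genes other than the enzymes had medians of -0.14 and -0.16. Of them, 14 (66.7%) and 12 (57.1%) lay below 0, beside 43.8% and 41.9% of all genes. Without probe sets able to match several transcripts the medians were -0.0073 and 0.0145 over the 13 genes left, so the sign with ERα17p turned, and scaling to a common standard deviation gave -0.058 with ERα17p. Among the 26 genes with at least 2 probe sets, all probe sets of a gene had the same sign in 15 cases with estradiol and in 16 with ERα17p. The same share over all genes was not counted, so whether this is usual cannot be read.

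On the array labelled vehicle itself, PFKFB3, BHLHE40 and ADM exceeded the baseline by 1.5-fold or more, and no gene of the list lay that far below it. Of all 19775 genes, 465 lay that far above it and 60 that far below. On both treated arrays 0 of the 37 genes lay 1.5-fold from the baseline in either direction. Hardly any gene did: of all genes, 1 lay above and 10 below with estradiol, and 13 and 1 with ERα17p. A count of 0 of 37 thus says little about the list. With the baseline in place of the array labelled vehicle, the counts of lower genes were therefore 0 with estradiol and 0 with ERα17p. These arrays themselves seem to have entered the baseline, which draws values towards it, so these counts do not show where the difference arose. Scaling the arrays to a common standard deviation shrinks the array labelled vehicle and stretches both treated arrays. After it, PFKFB3 (-0.36) and ADM (-0.34) no longer passed with ERα17p, nor BHLHE40 (-0.58) with estradiol. Each call against the array labelled vehicle uses that 1 array, and a high array labelled vehicle and a lowering by both treatments cannot be told apart.

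Estradiol and ERα17p, both at 1 µM for 3 h, were then compared directly, without that array. PFKFB3 was the only one of the 37 genes (2.70%) that passed 1.5-fold, at -0.76 (1.70-fold lower with estradiol), beside 0.207% of all genes lower and 0.147% higher. It ranked 14 of 19775 genes from the lowest. Its probe set lay below the baseline with estradiol and above it with ERα17p. BHLHE40, ADM and EGLN3 had 0.03, -0.18 and 0.16. The widest difference in the other direction was that of SLC2A3, 0.40 (1.32-fold), with its 3 probe sets at 0.35, 0.40 and 0.41. They share the sign and nearly the size, although 2 more probe sets that also match its paralogue SLC2A14 gave 0.07 and 0.19. With arrays scaled to a common standard deviation SLC2A3 had 0.61, but that scaling stretches both treated arrays and so enlarges differences between them. ENO2, the neuronal enolase, had 0.32 from 1 probe set. The other 15 enzymes lay between -0.16 and 0.13. The median over the list was -0.01, as it was over all genes. All probe sets of a gene had the same sign in 6 of 26 cases here, again without a share over all genes beside it.

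Other genes of the pathway were taken from 5 further lists. These too were chosen with earlier results of these data known, so their shares are description only. Of 81 measured genes, 4 (4.94%) were lower and 1 higher with estradiol against the array labelled vehicle, and 4 (4.94%) and 0 with ERα17p, beside 2.93% and 2.14% of all genes lower. Their medians were -0.02 and 0.03. In estradiol against ERα17p 0 of 81 passed as deposited, beside 0.207% of all genes lower and 0.147% higher. Among 12 HIF partners and degradation factors (ARNT, VHL and the like), ARNT2, a tissue-restricted partner subunit, was lower in both, by -0.86 and -0.74. Among 31 other hypoxia-induced genes, EFNA1, an ephrin ligand, had -1.66 and -1.38. DDIT4, an inhibitor of mTORC1, had -1.01 and -0.59. CITED2, which competes with HIF for the coactivators CREBBP and EP300, was higher with estradiol at 0.62 and had 0.50 with ERα17p. Among 16 other glycolytic isoenzymes and side steps, BPGM, which makes 2,3-bisphosphoglycerate, had -0.79 and -0.60. On the array labelled vehicle these 5 genes lay at 0.75, 1.41, 0.59, -0.62 and 0.79, and on the treated arrays they ran from -0.42 to 0.19. Scaled to a common standard deviation, ARNT2 (-0.43), DDIT4 (-0.35) and BPGM (-0.19) no longer passed with ERα17p, nor BPGM (-0.46) and CITED2 (0.37) with estradiol. That scaling stretches the treated arrays, so the count of 0 of 81 between them holds only as deposited. DDIT4, at -0.42 in estradiol against ERα17p as deposited, then passed 1.5-fold. None of 16 genes of pyruvate entry and the citrate cycle, and none of 6 of the pentose phosphate pathway, passed the size in any comparison.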

How the data were processed

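RNA of 3 SKBR3 samples was hybridised to 1 Affymetrix array each. The deposited log2 values were made by the authors with RMA, per the submitters' processing notes, a method of background correction, quantile normalization and probe set summary; version and log base: not given in the sources used here. Column medians lie near 0, and 7.28% of 54675 probe sets hold mirror values in a pair of columns (tolerance 1e-06, for values over 0.001), so each probe set was read as centred on a baseline. Depth has no meaning here; the number of arrays limits precision.

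Of the probe sets, 41091 had a single symbol, 1801 several and 11721 none; 62 controls were left out. Entrez IDs matched the GRCh38.p14 gene table for 41037. Gene values were medians over probe sets, and comparisons were log2 differences between 2 arrays, without a test, counted at 1.5-fold. The summary and the motif search were tested on simulated data (Python 3.11.15, pandas 2.3.3, numpy 2.4.6, matplotlib 3.10.9). Genes, roles and lists were chosen with earlier results of these data known. All 39 genes were accounted for; from each further list up to 4 genes past 1.5-fold were named. Alternatives changed the gene summary, the probe sets, the fold, the scaling, the reference and the promoter window. Promoters came from the RefSeq table, in which 35 of the 39 genes were found.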

Additional observations from a re-analysis of the deposited data

How the results depend on the processing

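No paired analysis was possible because each group has 1 array and the labels carry no replicate numbers. Of 122 values over counts and group medians of at least 3 genes, 106 kept their place: a count within 1.5 times, a median within 0.1 log2 units. Taking the mean over probe sets or lengthening the promoter window moved none of these. Neither did adding the GAPDH controls or centring each array, which gave 24 values each but could hardly move any. The controls touch only GAPDH in the list, and centring shifts all differences of a comparison by the same small amount. Centring did change the count of lower genes with estradiol from 3 to 4, which this rule counts as kept. Over all genes that count went from 579 to 634. When probe sets able to match several transcripts were dropped, 22 genes were left and PFKFB3, BHLHE40 and EGLN3 dropped out, so that 1 gene (ADM) was lower with estradiol, 1 with ERα17p and 0 between the treatments. Of all 16788 genes left, 499, 372 and 36 were lower, in the same order. In the list, the median of genes other than the enzymes became -0.0073 and 0.0145 over 13 genes, and that of the enzymes with ERα17p became -0.078. At 2-fold, 1 gene (PFKFB3) was lower in each comparison with the array labelled vehicle and 0 between treatments. Of all 19775 genes, 177 were then lower with estradiol, 146 with ERα17p and 7 between treatments. Against the baseline, 0 genes of the list were lower with either treatment, beside 10 of all genes with estradiol and 1 with ERα17p. With arrays scaled to a common standard deviation, 2 genes were lower with ERα17p (PFKFB3 at -0.36 and ADM at -0.34 no longer were). With estradiol against ERα17p 1 was higher (SLC2A3, 0.61), but this scaling stretches both treated arrays. The secreted signals then had medians of -0.33 and -0.22, the genes other than the enzymes -0.058 with ERα17p, and BHLHE40 -0.58 with estradiol. That scaling also moved the split over all genes. It went from 160 higher and 579 lower to 149 and 285 with estradiol. With ERα17p it went from 115 and 424 to 71 and 167, and between treatments from 29 and 41 to 308 and 242. No called gene of the list changed sign. Signal over background is unknown, so a difference of a gene that is hardly expressed looks like any other.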
